A study of Homo sapiens with 4 samples.

Results

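The genes described here are 44 genes of the endoplasmic reticulum (ER): chaperones that fold new proteins, enzymes that form their disulfide bonds, the sensors of unfolded protein, and the machinery of ER-associated degradation (ERAD). They were chosen by symbol, through the Ensembl identifier, and all 44 were found among the 60658 gene identifiers listed for each library. The study asked how TMEM161A, which encodes a transmembrane protein, bears on colorectal cancer. Its RNA sequencing part covers HT29 and LIM1215, both established human colorectal cancer cell lines. In each line 1 library came from cells given a negative control siRNA (NC) and 1 from cells given an siRNA against TMEM161A (si2), which makes 4 libraries. An siRNA is a short RNA duplex that directs the cutting of a matching mRNA. The dose, the time after transfection and the siRNA sequences are not given in the sources used here, and 1 siRNA was profiled per line. No group has a replicate, so no value below carries a test or an error between cultures. LIM1215 is the only repeat of the HT29 comparison, and each line has its own control library. Both knockdown libraries bear the same siRNA label, si2. What that siRNA does apart from lowering TMEM161A was not tested.

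Proteins bound for secretion or for membranes enter the ER unfolded. The chaperone BiP, encoded by HSPA5, binds them and works with J-domain cofactors and nucleotide exchange factors, while calnexin and calreticulin hold glycoproteins and protein disulfide isomerases pair their cysteines. When unfolded protein builds up, the sensors IRE1 (ERN1), ATF6 and PERK (EIF2AK3) start the unfolded protein response. IRE1 splices XBP1 mRNA to give an active transcription factor, ATF6 is cut free by the proteases encoded by MBTPS1 and MBTPS2, and PERK slows translation and raises ATF4. Proteins that cannot be folded are drawn back to the cytosol by ERAD and degraded. Colorectal cells make secreted and membrane proteins, which this machinery handles.

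The targeted gene was examined first. FPKM values count fragments relative to gene length and library depth. TMEM161A stood at FPKM 42.6 (NC) against 4.64 (si2) in HT29 and at 39.1 against 7.61 in LIM1215, so both si2 libraries matched their label. The depth at FPKM 1, estimated from the values, was 18.08 to 21.54 fragments per kilobase, and mitochondrial genes held 13.9% to 16.4% of the summed FPKM. Of 10 colon epithelial markers, EPCAM, KRT8, KRT18 and KRT19 were above an FPKM of 150 in every library. LIM1215 had all 10 above 60, whereas in the HT29 libraries CDX1 was listed at 0 and VIL1, LGALS4 and KRT20 were below 1. These 4 markers of colon epithelium were thus at or near 0 in the libraries labelled HT29. Whether those libraries came from HT29 cells was not tested, and HT29 below means the libraries so labelled. Of the immune markers reported here, PTPRC and CD3E were listed at 0 in all libraries. CD68, a lysosomal protein of macrophages, had 6.22 (NC) and 9.82 (si2) in HT29 and 58.1 and 72.2 in LIM1215, and LYZ lay between 0.201 and 2.13. Of 5 fibroblast markers, COL1A1 had 17.6 and 16.0 in HT29 and 4.83 and 8.56 in LIM1215, and the other 4 were below 1, as were all 3 endothelial markers. The part of these markers in the results was not tested.

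Most of the ER genes were lower after the TMEM161A siRNA, and the same genes led in both lines. Here a log2 ratio compares FPKM plus 1 in the si2 library with that in the control of the same line, and a gene counts as past 2-fold when the ratio is at least 1 in size. In HT29, 14 of the 44 genes fell past 2-fold, or 31.8%, against 1.95% of the 14803 genes compared (mean FPKM of at least 1). In LIM1215, 9 of the 44 did, or 20.5%, against 1.78%. HSPA5, HSP90B1, HYOU1, SDF2L1, HERPUD1, CRELD2, MANF and ERO1B were past it in both lines, 18.2% of the 44 against 0.466% of all genes compared. None of the 44 rose past 2-fold in either line, where 1.85% of all genes did in HT29 and 1.68% in LIM1215. The log2 ratios of the 44 had their median at −0.61 in HT29 and at −0.49 in LIM1215, against 0.04 and 0.02 over all genes compared. At 1.5-fold, 23 of the 44 were lower in HT29, 20 in LIM1215 and 19 in both, against 6.91%, 6.18% and 2.14% of all genes. MBTPS1 alone of the 44 was higher at 1.5-fold in each line, where 7.87% (HT29) and 6.63% (LIM1215) of all genes were. Among protein-coding genes alone, 1.26% fell past 2-fold in HT29, 0.887% in LIM1215 and 0.268% in both. Ratios below 0 were found in both lines for 36 of the 44, or 81.8%, against 28.0% of all genes compared. The 36 include DERL3, which was close to absent in HT29, and without it the count was 35 of 43. Bulk RNA cannot tell a lower level in every cell from a loss in some of them.

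**Figure D1:**
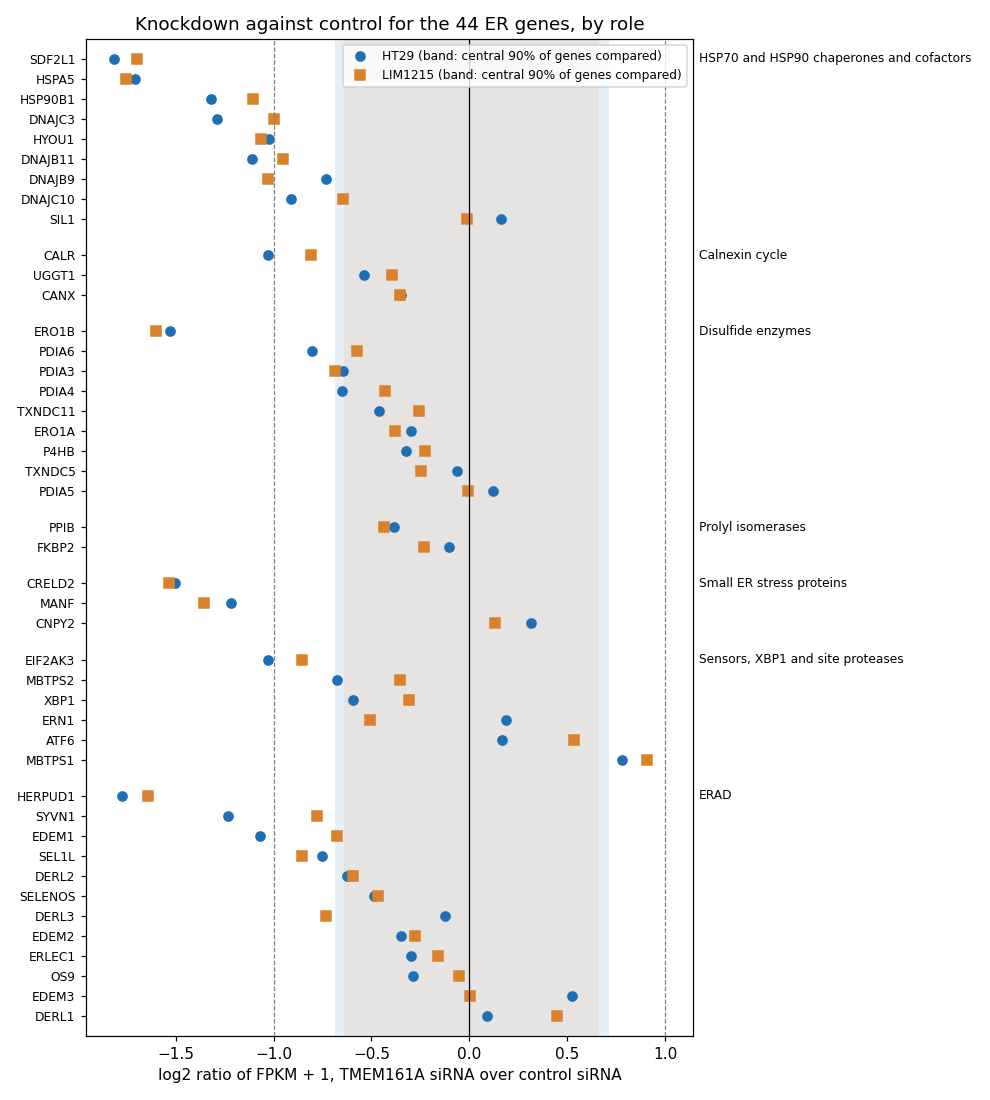
Log2 ratio of FPKM plus 1, si2 over control, for each of the 44 genes, in HT29 (circles) and LIM1215 (squares), grouped by role, with 1 library per siRNA and line. The shaded bands hold the central 90% of all genes compared in each line, −0.69 to 0.71 for HT29 and −0.64 to 0.66 for LIM1215, and dashed lines mark 2-fold; HSPA5, SDF2L1 and HERPUD1 lie farthest left among genes with FPKM over 10, and MBTPS1 farthest right.

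Because many of these genes are known targets of ATF6 and XBP1, their promoters were searched for the letters those factors bind. The ER stress response element (ERSE) was searched as CCAAT, 9 bases of any kind and CCACG, and the related ERSE-II as ATTGG, 1 base of any kind and CCACG, on both strands, in RefSeq promoters of GRCh38.p14 that run from 250 bases before to 50 after a start. A promoter was found for 41 of the 44 genes. The ERSE was found in 8 of these 41 genes, or 19.5%, against 25 of all 27305 genes with a promoter, or 0.0916%, and 27 of all 35116 promoters of that length, or 0.0769%. The ERSE-II was found in 3 of the 41, or 7.32%, against 0.0696% of all genes and 0.0541% of all promoters. Many of the 44 are known targets of the factors that bind these elements. The choice of genes thus fixed these shares in part, and they are no separate result. The matches are shown because the genes that hold them include 7 of the 8 that fell past 2-fold in both lines. Outside the 44, none of 19 genes compared with a match did. Of 10450 other genes with a promoter and neither element, 0.172% did. Whether a match bears on the fall was not tested. Each line gives a match with up to 8 bases on either side, 5′ to 3′ on the strand of the gene, with the fixed letters of the element in capitals. A match that reads CGTGG first lies in the reverse direction.
HSPA5, ERSE, chr9:125241383-125241417, minus strand: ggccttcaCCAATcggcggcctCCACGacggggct
HSP90B1, ERSE, chr12:103930208-103930242, plus strand: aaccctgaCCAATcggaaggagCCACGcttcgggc
HSP90B1, ERSE, chr12:103930313-103930347, plus strand: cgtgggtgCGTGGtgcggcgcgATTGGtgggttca
CALR, ERSE, chr19:12938376-12938410, plus strand: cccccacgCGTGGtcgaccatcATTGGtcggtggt
CRELD2, ERSE, chr22:49918546-49918580, plus strand: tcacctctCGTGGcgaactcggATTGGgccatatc
XBP1, ERSE, chr22:28800595-28800629, minus strand: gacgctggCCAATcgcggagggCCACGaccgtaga
PDIA6, ERSE, chr2:10812845-10812879, minus strand: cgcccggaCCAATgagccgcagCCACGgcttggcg
CANX, ERSE, chr5:179698770-179698804, plus strand: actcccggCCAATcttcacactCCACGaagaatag
ERO1B, ERSE, chr1:236282175-236282208, minus strand: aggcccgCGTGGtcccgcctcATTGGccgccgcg
HERPUD1, ERSE-II, chr16:56932017-56932043, plus strand: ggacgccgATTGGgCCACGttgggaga
SDF2L1, ERSE-II, chr22:21642106-21642132, plus strand: ctcggaagCGTGGaCCAATcaaaaccc
HYOU1, ERSE-II, chr11:119057266-119057292, minus strand: gcctgggaCGTGGtCCAATgagtacgc
HYOU1, ERSE-II, chr11:119057372-119057398, minus strand: ccccgtgaCGTGGtCCAATcccaggcc
The HSPA5 match ends 48 bases before the start, and the XBP1 match ends 34 bases before it. A match describes letters only, and its use in these cells was not measured.

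The HSP70 and HSP90 chaperones with their cofactors were among the most strongly lowered groups, with medians over 9 genes of −1.11 (HT29) and −1.03 (LIM1215). Of these 9, 6 fell past 2-fold in HT29 (66.7%) and 5 in LIM1215 (55.6%). Of all genes compared, 1.95% and 1.78% did. HSPA5 (chromosome 9, minus strand) stood at FPKM 1305 (NC) and 398 (si2) in HT29, and at 894 and 264 in LIM1215. The HT29 level after knockdown was thus 30.5% of control (30.2% to 30.9%, 95% counting interval) and the LIM1215 level 29.5% (29.1% to 30.0%), with log2 ratios of −1.71 and −1.76. These intervals cover the counting of fragments only. HSPA5 was the most abundant of the 44 transcripts in the HT29 control, and lay behind P4HB, CANX, HSP90B1 and CALR in the si2 library.

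HSP90B1, which encodes the ER paralog of HSP90 (GRP94), had an FPKM of 1184 and 474 in HT29 and of 813 and 378 in LIM1215, with log2 ratios of −1.32 and −1.10. SDF2L1 encodes a small protein that works with the J-domain protein DNAJB11. Its FPKM was 155 (NC) and 43.3 (si2) for HT29 and 148 and 45.0 for LIM1215, the largest fall of the 44 in HT29 (log2 ratio −1.82) and second to HSPA5 in LIM1215 (−1.70) with a pseudocount of 1. As a share of control, SDF2L1 kept 27.9% and 30.4%, while ERO1B, a gene of low level, kept 25.6% and 13.1%. With a pseudocount of 0.1 the log2 ratios of ERO1B (−1.91 and −2.68) lay below those of SDF2L1 (−1.84 and −1.72) in both lines. HYOU1, a large HSP70 relative that exchanges nucleotide on BiP, went from 269 to 132 and from 225 to 107, with log2 ratios of −1.02 and −1.06. The knockdown libraries thus lay below the controls for these genes whichever line they were taken from.

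The J-domain cofactors of BiP were lower with less even sizes. DNAJB11 had an FPKM of 197 and 90.6 in HT29 and of 195 and 100.3 in LIM1215, with log2 ratios of −1.11 and −0.95. DNAJC3 (p58IPK) had 35.1 and 13.7 in HT29 and 29.4 and 14.2 in LIM1215, with log2 ratios of −1.29 and −0.995. The LIM1215 level was 48.5% of control, under 50%, and the pseudocount of 1 left the log2 ratio just short of the threshold. DNAJB9 (ERdj4) was the member with the reverse order, past 2-fold in LIM1215 (31.4 to 14.9, log2 ratio −1.03) and not in HT29 (37.6 and 22.3, −0.73). DNAJC10, a J-domain protein that also reduces disulfides, had log2 ratios of −0.91 and −0.65. SIL1 stood apart from the group. It encodes the other nucleotide exchange factor of BiP, and its FPKM was 33.9 and 38.0 in HT29 and 34.4 and 34.1 in LIM1215.

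In the calnexin cycle, which retains glycoproteins until they are folded, the soluble and the membrane-bound lectin differed in size of change. Calreticulin (CALR) had an FPKM of 893 and 438 in HT29, a log2 ratio of −1.03, and of 1016 and 579 in LIM1215, a log2 ratio of −0.81. Calnexin (CANX) kept 78.6% of control in HT29 and 78.2% in LIM1215, with log2 ratios of −0.35 in both lines, and its promoter holds an ERSE match as that of CALR does. UGGT1, the sensor that tags misfolded glycoproteins for another round, had log2 ratios of −0.54 and −0.39.

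Disulfide enzymes were lower by less than the chaperones, with medians over 9 genes of −0.46 (HT29) and −0.38 (LIM1215). ERO1B was the only member past 2-fold. That is 11.1% of the group in each line, against 1.95% and 1.78% of all genes compared. ERO1B and ERO1A encode the oxidases that recharge protein disulfide isomerases. ERO1B stood at FPKM 7.16 (NC) and 1.83 (si2) in HT29, or 25.6% of control (counting interval 21.7% to 30.0%). In LIM1215 it had 3.36 and 0.440, or 13.1% (9.34% to 18.2%), resting on an estimated 291 and 42.7 fragments. ERO1A, the more abundant oxidase, had 58.4 and 47.4 in HT29 and 65.3 and 49.9 in LIM1215, with log2 ratios of −0.30 and −0.38. ERO1B thus had log2 ratios of −1.53 (HT29) and −1.60 (LIM1215), so the pair of oxidases differed in both lines.

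The protein disulfide isomerases themselves spread over a range. PDIA6 had the lowest log2 ratios among them in HT29 (−0.81, from 130.5 to 74.2) and had −0.58 in LIM1215 (222 to 148). PDIA3, which serves calnexin and calreticulin, had −0.65 and −0.69, and PDIA4 had −0.65 and −0.43. P4HB, the founding isomerase, had an FPKM of 1259 and 1005 in HT29 and of 927 and 792 in LIM1215, with log2 ratios of −0.32 and −0.23. It was thereby the most abundant of the 44 in both si2 libraries. TXNDC11 had log2 ratios of −0.46 and −0.26, TXNDC5 of −0.06 and −0.25, and PDIA5 of 0.12 and −0.01. Of the exon bases of TXNDC5, 60.9% also belong to its read-through transcript BLOC1S5-TXNDC5, so its value is uncertain.

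The prolyl isomerases PPIB and FKBP2, which turn proline bonds during folding, had HT29 log2 ratios of −0.38 and −0.10 and LIM1215 log2 ratios of −0.43 and −0.23. FKBP2 shares 71% of its exon bases with an overlapping gene on its own strand. Among the small ER stress proteins, MANF, a secreted factor that binds BiP, had an FPKM of 300.5 and 129 in HT29 and of 369 and 143 in LIM1215. Its log2 ratios were −1.22 and −1.36. CRELD2, a secreted disulfide isomerase-like protein, had 65.5 and 22.5 in HT29 and 89.0 and 30.1 in LIM1215, with log2 ratios of −1.50 and −1.53. CNPY2 differed from both, with 100.1 and 125 in HT29 and 171 and 187 in LIM1215, log2 ratios of 0.31 and 0.13. Of its exon bases, 27.6% belong to an overlapping gene on the same strand and 34.7% to one on the opposite strand.

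The sensors did not move together. EIF2AK3 (PERK) had an FPKM of 18.2 and 8.42 in HT29, a log2 ratio of −1.03, and of 11.9 and 6.11 in LIM1215, a log2 ratio of −0.86. ATF6 was not lower in either line, with 9.26 and 10.5 in HT29 (log2 ratio 0.16) and 9.35 and 14.0 in LIM1215 (0.53). ERN1 (IRE1) went opposite ways, with 4.08 and 4.78 in HT29 (0.19) and 7.18 and 4.75 in LIM1215 (−0.51). These are levels of mRNA, and the splicing, cutting and phosphorylation that switch the sensors on were not measured. PERK mRNA was thus lower in both lines, while that of ATF6 was higher.

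XBP1 had an FPKM of 91.4 and 60.1 in HT29 (log2 ratio −0.60) and of 175 and 141 in LIM1215 (−0.31). A value per gene adds its spliced and unspliced forms. The proteases that release ATF6 in the Golgi went in opposite directions. MBTPS1 (site-1 protease) had an FPKM of 35.6 and 61.8 in HT29 and of 23.6 and 45.1 in LIM1215, or 174% and 191% of control, the highest log2 ratios of the 44 in both lines (0.78 and 0.91). MBTPS2 (site-2 protease) had 8.55 and 4.99 in HT29 and 7.40 and 5.58 in LIM1215, with log2 ratios of −0.67 and −0.35.

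In ERAD, HERPUD1 led by a wide margin. It encodes a short-lived membrane protein that organises the degradation complex, and its FPKM was 489.8 (NC) and 143 (si2) for HT29 and 388 and 123 for LIM1215. The si2 level was 29.1% of the HT29 control (counting interval 28.4% to 29.8%) and 31.8% of the LIM1215 control (30.9% to 32.7%), with log2 ratios of −1.77 and −1.64. The ubiquitin ligase SYVN1 (HRD1) had 71.4 and 29.8 in HT29 (−1.23) and 58.2 and 33.6 in LIM1215 (−0.78). Its partner SEL1L had 47.8 and 28.0 in HT29 (−0.75) and 49.2 and 26.8 in LIM1215 (−0.85). SYVN1 was therefore past 2-fold in HT29 alone, and SEL1L in neither line.

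The EDEM proteins trim mannose from glycoproteins meant for degradation, and they differed from each other. EDEM1 had an FPKM of 25.7 and 11.7 in HT29 (log2 ratio −1.07) and of 26.2 and 16.0 in LIM1215 (−0.68). EDEM2 had log2 ratios of −0.35 and −0.28. EDEM3 had 9.53 and 14.1 in HT29 (0.52) but 21.4 in both LIM1215 libraries. Among the derlins, which form part of the channel out of the ER, DERL2 had log2 ratios of −0.62 and −0.59 and DERL1 of 0.09 and 0.45. DERL3 was close to absent in HT29, on an estimated 6.47 fragments in the control and under 1 in si2, so no ratio is read there. In LIM1215 it had 5.13 and 2.70 (−0.73). Of its exon bases, 77% overlap SMARCB1 on the opposite strand, and the strand setting of the counting is not stated. The lectins OS9 and ERLEC1 had HT29 log2 ratios of −0.29 and −0.30 and LIM1215 log2 ratios of −0.05 and −0.16, and SELENOS, which recruits the ATPase that pulls substrates out, of −0.49 and −0.47.

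**Figure D2:**
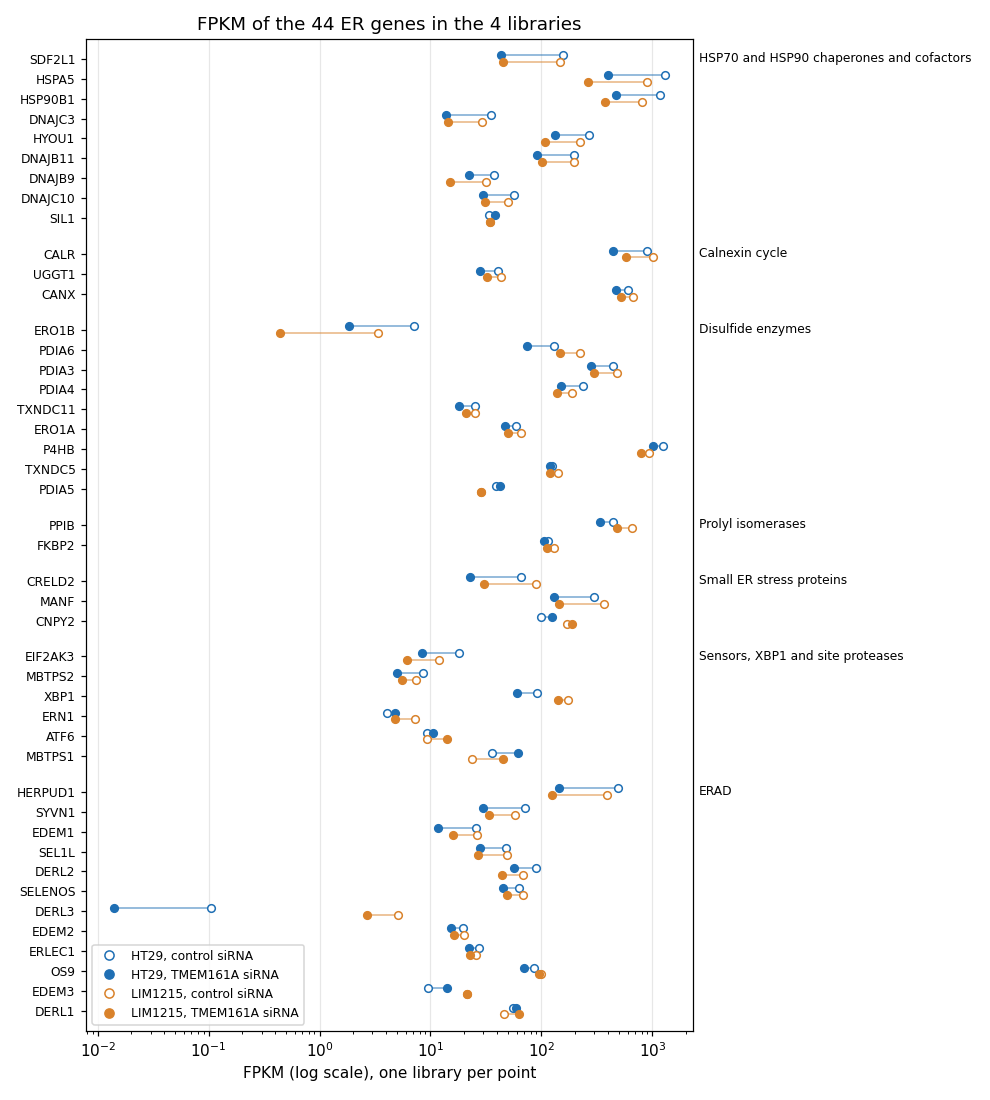
FPKM on a log scale of the 44 genes in the 4 libraries, 1 library per point, with control (open) and si2 (filled) joined within a line, HT29 in blue and LIM1215 in orange. The span runs from HSPA5, HSP90B1, P4HB and CALR at the top of the scale down to ERO1B and DERL3, and wide joined pairs are seen for ERO1B, HSPA5, SDF2L1, HERPUD1 and CRELD2; the HT29 pair of DERL3 is also wide, and rests on few fragments.

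The genes were then read by the branch of the unfolded protein response that is known to drive them. The branches share targets, so this division is approximate. The 9 genes driven mainly by ATF6 (HSPA5, HSP90B1, CALR, PDIA4, HYOU1, HERPUD1, SDF2L1, CRELD2 and MANF) had medians of −1.32 (HT29) and −1.36 (LIM1215). Of them, 8 fell past 2-fold in HT29 (88.9%) and 7 in LIM1215 (77.8%), and PDIA4 in neither. Of all genes compared, 1.95% (HT29) and 1.78% (LIM1215) did. The 10 driven mainly by XBP1 (DNAJB9, DNAJB11, DNAJC3, PDIA6, EDEM1, EDEM2, SYVN1, DERL1, DERL2 and DERL3) had medians of −0.77 and −0.70, DERL3 included. Of these, 4 fell past 2-fold in HT29 (DNAJB11, DNAJC3, SYVN1 and EDEM1), and DNAJB9 alone did in LIM1215. The remaining 22 genes outside these branch lists and the sensors had medians of −0.34 and −0.28. Of them, ERO1B alone fell past 2-fold, or 4.55% in each line. The ATF6 genes had the lowest median of the branches in both lines, and no test of that order was made. The lists were chosen with earlier results of these data known.

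**Figure D3:**
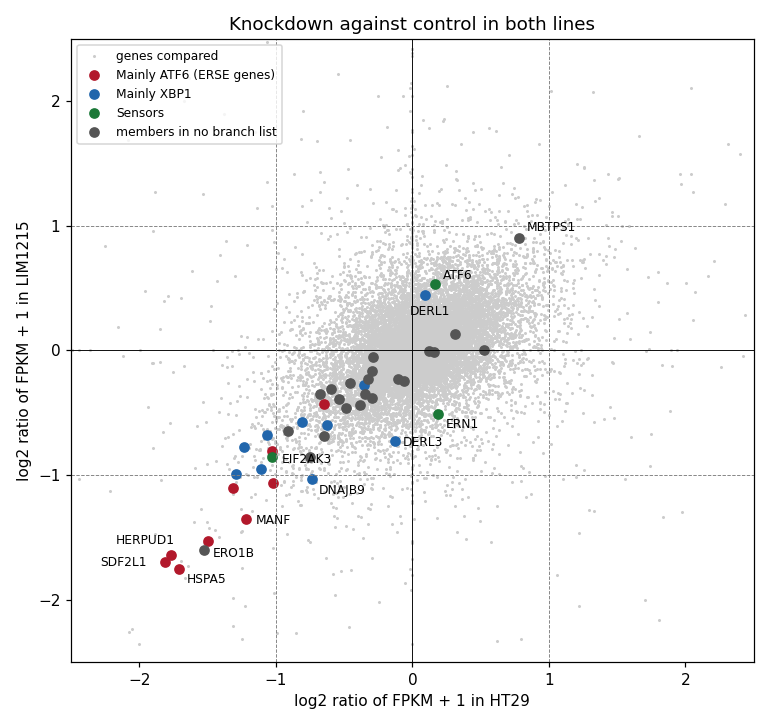
Log2 ratio of FPKM plus 1 in HT29 against that in LIM1215 for all genes compared (grey; 163 lie outside the axes) and for the 44 genes, coloured by branch, with dashed lines at 2-fold. Most of the 44 lie in the lower left, where 7 of the 9 ATF6 genes and ERO1B are past 2-fold in both lines, while ATF6, DERL1 and MBTPS1 lie at the upper right and ERN1 at the lower right.

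The sizes of change in the lines were close. For 32 of the 44 genes the log2 ratios of HT29 and LIM1215 differed by under 0.25, and the median difference was 0.164 in size (0.157 without DERL3). Over the 44 genes Pearson's r between the lines was 0.915 and Spearman's rho 0.902 (0.928 and 0.925 without DERL3), against 0.460 and 0.448 over the 12295 protein-coding genes compared. Genes of a library share its depth and culture, so these are descriptions. Leaving out DERL3, whose HT29 ratio is not read, the differences of at least 0.5 were those of ERN1 (−0.70, LIM1215 minus HT29) and EDEM3 (−0.52). SYVN1 (0.46) and EDEM1 (0.39) fell more in HT29. With 1 library per siRNA in each line, no difference between the lines could be tested.

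In the libraries given the control siRNA, the lines held these genes at similar levels. The log2 ratio of the LIM1215 control over the HT29 control had a median of 0.02 (0.01 without DERL3). EDEM3 was past 2-fold higher in LIM1215, 1 of the 43 genes other than DERL3, where 12.0% of all genes compared were. DERL3 was also higher there but passed the filter on low values through LIM1215 alone, so it is not counted. XBP1 came next, with 0.93. No member was past 2-fold lower in LIM1215, against 7.42% of all genes. ERO1B (−0.90) and EIF2AK3 (−0.58) had the lowest ratios. The order of abundance was led in both lines by HSPA5, P4HB, HSP90B1 and CALR, with P4HB behind HSPA5 by 1259 to 1305 in HT29 and CALR ahead at 1016 in LIM1215.

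The promoter matches printed above were set beside the ratios. The 11 genes of the 44 with an ERSE or ERSE-II match had medians of −1.32 (HT29) and −1.10 (LIM1215). Of them, 7 fell past 2-fold in both lines, or 63.6%, against 0.466% of all genes compared. HSPA5, HSP90B1, CALR, HYOU1, HERPUD1, SDF2L1 and CRELD2 are in both this set and the ATF6 branch list. The readings by match and by branch are thus not separate. The 30 with a promoter and neither element had medians of −0.42 and −0.39, and 1 of them, MANF, fell past 2-fold in both. The 3 with ERSE-II, HERPUD1, SDF2L1 and HYOU1, were all past it. Among the ERSE genes HSPA5 was lowest in both lines, while CANX (−0.35 in both lines) and XBP1 (−0.60 and −0.31) were highest in HT29 and LIM1215 in turn, and neither they nor PDIA6 were past 2-fold. The unfolded protein response element of XBP1 was searched as TGACGTGG. It was found in 4 of the 41 genes (9.76%), against 0.927% of all genes and 0.729% of all promoters. The choice of genes bears on this share as well. In HYOU1 the element overlaps the more distant ERSE-II, and the other genes were DNAJC10, TXNDC5 and TXNDC11. No match says only that these letters are not in the window searched.

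Outside the 44, 19 genes compared held an ERSE or ERSE-II match, with medians of −0.24 (HT29) and −0.15 (LIM1215). None of them fell past 2-fold in both lines, where 0.172% of the other genes with a promoter and neither element did. The nearest was FICD, which encodes the enzyme that switches BiP off and on by AMPylation, with an FPKM of 8.21 and 3.005 in HT29 (−1.20) and of 4.95 and 1.98 in LIM1215 (−0.997). ALG12, a mannosyltransferase gene that neighbours CRELD2, had −0.78 and −0.59. SHCBP1 was past 2-fold in HT29 (−1.06) and had −0.78 in LIM1215. The 10450 other genes with a promoter and neither element had medians of 0.04 and 0.02. Promoters with the same letters thus went with large falls mainly within the ER list, whose members were chosen for their function with earlier results known.

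**Figure D4:**
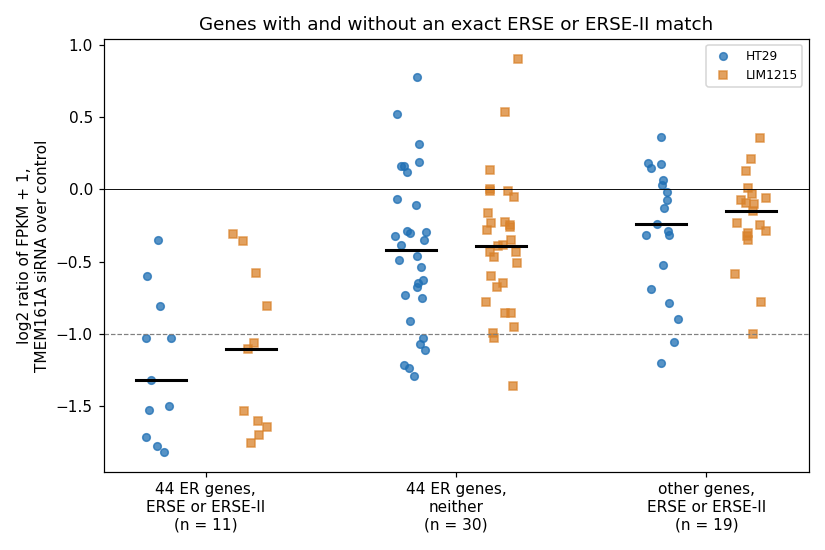
Log2 ratio of FPKM plus 1 in HT29 (circles) and LIM1215 (squares) for the 11 ER genes with an exact ERSE or ERSE-II match, the 30 with neither, and 19 other genes with a match; each point is a gene and bars are medians, with a dashed line at 2-fold. The medians of the ER genes with a match, −1.32 and −1.10, lie below those of the other groups.

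Other genes of the pathway were read from lists of genes outside the 44. In the PERK and ATF4 list, 1 of 10 genes compared fell past 2-fold in both lines and none rose. That is 10% of a short list, against 0.466% of all genes compared. The gene was DDIT3 (CHOP), with an FPKM of 130 and 46.9 in HT29 (log2 ratio −1.45) and of 57.6 and 20.6 in LIM1215 (−1.44). ATF4 itself had −0.06 and −0.16, and TRIB3 had −0.28 and −0.32. PPP1R15A, which encodes the phosphatase subunit GADD34, had 0.34 and 0.22. The medians of this list were −0.03 and −0.13. In each line 6 of the 10 genes were below 0, or 60%, against 44.4% (HT29) and 46.4% (LIM1215) of all genes compared. DDIT3 had the lowest log2 ratios of the list in both lines. CHAC1 came next in HT29 (−0.58) and had −0.17 in LIM1215. Of the exon bases of DDIT3, 31.6% overlap MARS1 and MBD6 on the opposite strand and 8.03% a gene on its own strand. Its value is therefore uncertain.

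Among 37 other ER folding genes compared, the medians were −0.03 and −0.09. The 37 include AGR2 and AGR3, which were listed at 0 in both HT29 libraries and passed the filter through LIM1215 alone. Their HT29 ratios are 0 for that reason and are not read. NUCB2, a calcium-binding protein, was the only one of the 37 past 2-fold, in both lines (−1.19 and −1.17). That is 2.70% of the list, against 0.466% of all genes compared. HSPA13, an HSP70 relative, had −0.81 and −0.83, and calumenin (CALU) had 0.84 and 0.97. None of 21 other ERAD genes was past 2-fold. Of all genes compared, 1.95% (HT29) and 1.78% (LIM1215) fell past it, so none of 21 is near the share over all genes. Of the 12 ERAD members, 3 fell past it in HT29 (25%) and 1 in LIM1215 (8.33%). The lowest were TRAM1 (−0.88 and −0.72), the ubiquitin-conjugating enzyme UBE2J1 (−0.97 and −0.60) and NGLY1 (−0.50 and −0.36). Of 8 other stress sensors and IRE1 partners, CREB3L2, a transcription factor activated by cleavage as ATF6 is, fell past 2-fold in both lines (−1.02 and −1.37). That is 12.5% of a short list, against 0.466% of all genes compared. RTCB, the ligase that joins XBP1 after IRE1 has cut it, had 0.40 and 0.47. CREB3L1 was listed at 0 in the HT29 control and at 0.258 in HT29 si2, an estimated 13.7 fragments. Its HT29 ratio, by which it was named, is therefore not read. In LIM1215 CREB3L1 had an FPKM of 8.12 and 11.0 (0.39). CREB3L1 and ERN2 are counted in the 8 but passed the filter through LIM1215 alone.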

How the data were processed

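Total RNA was sequenced as stranded mRNA libraries, per the labels' protocols. The authors deposited FPKM per Ensembl gene identifier, 1 file per library. The submitters' processing notes name HISAT2 2.1.0, SAMtools 1.20, Cufflinks 2.2.1 and Cuffdiff, and GRCh38. The annotation, filters and strand setting are not given in the sources used here. Symbols and gene models came from GENCODE release 44 (GRCh38), which holds 56550 of the identifiers.

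Log2 ratios used FPKM plus 1 and genes with a mean FPKM of at least 1, which all 44 genes passed, DERL3 through LIM1215 alone. Fold changes of low genes are understated on this scale. FPKM is relative to the whole library. Depth was estimated from the steps of low values in genes with 1 transcript of at least 500 bases. In each library 78.8% to 80.1% of these values lay within 0.03 of a whole number of fragments. Counting intervals are exact Clopper-Pearson intervals at 95%, through the canonical transcript length. The scripts (Python 3.11.15, numpy 2.4.6, pandas 2.3.3, scipy 1.17.1) were tested on simulated data.

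The members and lists were chosen with earlier results of these data known. Named genes were all 44 members, TMEM161A and, per other list, the genes past 2-fold in both lines or the 3 with the largest shared ratio. ATF4, CHAC1, the genes named beside the promoter matches, AGR2, AGR3 and ERN2 were named after their values were seen. A planned comparison by the C-terminal signal of the proteins was not run. One marker of the immune list is not reported here.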

Additional observations from a re-analysis of the deposited data

Results flagged for a closer look

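ERN1, SIL1 and PDIA5 had log2 ratios above 0 in HT29 and below 0 in LIM1215. The difference, LIM1215 minus HT29, was −0.70 for ERN1, −0.17 for SIL1 and −0.13 for PDIA5. The HT29 level of ERN1 was 117% of control (106% to 130%, 95% counting interval) and the LIM1215 level 66.1% (60.1% to 72.8%). The LIM1215 intervals of SIL1 (90.6% to 107%) and PDIA5 (90.5% to 109%) included 100%. None of these differences was tested, since each line had 1 library per siRNA.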

How the results depend on the processing

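Under 8 alternatives in pseudocount (0.1 or 5), filter (none, or a mean FPKM of at least 5) and scaling (centring on the median, a common sum, upper quartile, removal of a trend on level), 11 to 14 of the 44 genes were past 2-fold in HT29, 7 to 10 in LIM1215 and 7 to 9 lower in both lines. The share of all genes lower past 2-fold moved from 0.635% (pseudocount of 5) to 3.77% (pseudocount of 0.1) in HT29 and from 0.594% to 3.43% in LIM1215. With a 1.5-fold threshold the counts were 24 in HT29, 21 in LIM1215 and 19 lower in both, against 14, 9 and 8 at 2-fold. MBTPS1 was then higher in each line, and 6.91% and 6.18% of all genes compared were lower. The median over the 44 lay between −0.69 and −0.52 in HT29 and between −0.53 and −0.43 in LIM1215. HSPA5, HSP90B1, HYOU1, SDF2L1, MANF, CRELD2 and HERPUD1 were past 2-fold in both lines under all 8. ERO1B was not with a pseudocount of 5 (−0.83 in HT29 and −0.62 in LIM1215) and was filtered out at a mean of 5. DNAJC3 in LIM1215 passed under 5 of the 8, with −1.04 at the lowest. Of 700 values of single genes, 4 changed sign, all of EDEM3 in LIM1215, near 0. No paired analysis was possible because each group had 1 library, and leaving out a library leaves no comparison.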

Other observations

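Of all FPKM in a library, the 44 genes accounted for 1.18% (NC) and 0.636% (si2) in HT29 and for 0.982% and 0.604% in LIM1215. The 5 most abundant of them held 46.9% to 56.4% of that share, depending on the library.

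AGR2 and ERN2, genes of the ER that are typical of intestinal epithelium, differed between the libraries labelled HT29 and LIM1215. Whether the libraries labelled HT29 came from HT29 cells was not tested, so these values may not describe that line. AGR2, a disulfide isomerase of mucus-secreting cells, was listed at 0 in both HT29 libraries and had an FPKM of 954 in the LIM1215 control and 585 in LIM1215 si2 (log2 ratio −0.71). ERN2, the epithelial paralog of IRE1, was under 1 in both HT29 libraries and had 40.4 and 69.2 in LIM1215 (0.76), where ERN1 had −0.51.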
